A study of Mus musculus with 8 samples.

Results

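The 32 genes described here encode the enzymes and transporters of glycolysis and lactate metabolism, together with well-known targets and regulators of the hypoxia-inducible factors (HIFs). They were taken by name from the 20408 genes found in the deposited expression matrices, and all 32 were found in all 8 libraries. The libraries are single-cell RNA sequencing libraries of sorted endothelial cells (ECs) of mouse breast tumours, 2 libraries for each combination of tumour model and injection. Spontaneous tumours arose in MMTV-PyMT mice, in which the polyoma middle T oncogene is driven by the mammary tumour virus promoter. Implanted tumours were grown by placing cultured cells of such spontaneous tumours into the mammary fat pad of female mice without the transgene. Each tumour was injected with PBS or with cGAMP, a cyclic dinucleotide that activates STING, and was taken 3 h later. All mice were labelled as adult and as C57BL/6, whereas the methods name FVB mice, so the strain is not settled, but neither source gives the models different strains. Nothing in the labels says that replicates with the same number were handled together.

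Glycolysis splits glucose into pyruvate, and ECs are known to draw most of their energy from it even where oxygen is available. Under low oxygen the prolyl hydroxylases encoded by the Egln genes no longer mark HIF alpha subunits for degradation, and the stabilised factors raise the transcription of glucose transporters, glycolytic enzymes, lactate export, mitophagy receptors and collagen-modifying enzymes. In growing vessels the tip cells, which lead a sprout, are known for high glycolysis and for genes such as Adm, Apln and Cxcr4, several of which are themselves raised by hypoxia.

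The HIF complex binds DNA at a short core motif, so the letters ACGTG and GCGTG were searched on both strands in the bases from -160 to -21 upstream of the transcription start in the RefSeq promoter table (assembly GRCm38.p6, the same build as mm10). Of the 32851 windows in that table, 26.6% held at least 1 match and 2.76% held 3 or more. For 29 of the 32 genes a window was given (Ero1l under the symbol Ero1a, and none for Bnip3l, Ndrg1 and Epas1), and 25 of these 29 held a match in at least 1 window, 6 of them 3 or more. Because some genes have several start sites, the same count over windows is 30 of 42. Of the 6 windows printed here, 5 belong to genes with large differences between the tip-gated and the other ECs described later, and Ldha is shown as a gene with many matches but a small difference. Matches are in capitals, read 5′ to 3′ on the strand of the gene, and overlapping matches merge into 1 run. The letters CACGTG are a match on both strands and were counted on each of them, here and in the tallies above.
Ankrd37, chr8:45999871-46000010, minus strand: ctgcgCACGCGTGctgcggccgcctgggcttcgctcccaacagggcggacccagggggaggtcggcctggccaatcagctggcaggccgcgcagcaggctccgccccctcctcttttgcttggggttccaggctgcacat
Bnip3, chr7:138909527-138909666, minus strand: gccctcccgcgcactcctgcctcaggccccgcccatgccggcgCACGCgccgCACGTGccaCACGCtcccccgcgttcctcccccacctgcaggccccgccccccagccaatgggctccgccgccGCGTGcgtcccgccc
Ero1l, chr14:45318593-45318702, minus strand: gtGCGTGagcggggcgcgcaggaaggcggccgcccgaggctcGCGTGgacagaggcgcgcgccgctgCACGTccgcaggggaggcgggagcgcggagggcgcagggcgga
Slc16a3, chr11:120948907-120949046, plus strand: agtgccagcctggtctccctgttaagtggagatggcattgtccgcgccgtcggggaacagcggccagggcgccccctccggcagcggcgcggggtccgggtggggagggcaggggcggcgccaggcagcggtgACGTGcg
Pgk1, chrX:106186940-106187079, plus strand: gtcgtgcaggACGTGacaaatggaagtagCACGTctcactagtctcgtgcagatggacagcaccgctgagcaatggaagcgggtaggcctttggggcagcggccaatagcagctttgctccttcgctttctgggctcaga
Ldha, chr7:46845644-46845783, plus strand: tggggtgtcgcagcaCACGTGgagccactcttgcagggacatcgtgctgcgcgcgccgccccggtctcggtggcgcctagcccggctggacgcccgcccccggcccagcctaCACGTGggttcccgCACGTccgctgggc
The Bnip3 and Ldha windows each held 5 matches, the Ero1l window 3, the Ankrd37 and Pgk1 windows 2 each and the Slc16a3 window 1. The Ero1l window was shortened to 110 bases to leave out bases that are exonic in GENCODE. Windows were placed by RefSeq starts, and those of Ankrd37, Ero1l, Slc16a3 and Ldha lie within the longer GENCODE spans of these genes. They can therefore hold sequence that is transcribed from other starts. A match is only a match of letters. No match was found in the windows of Tpi1 and Egln3, which says nothing about the factors that act on them. Of the 9 genes at least doubled in tip-gated ECs, 7 held a match, and so did 18 of the 20 other genes with a window.

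The deposited tables held 8204 cells with 97421522 UMIs, 7863535 to 16506086 per library. Cells with a Pecam1 UMI, taken as ECs, numbered 7159 (601 to 1529 per library). Levels are given as the mean over these ECs in CPM, that is UMIs of the gene after each cell is scaled to 1000000 UMIs. A higher level in some cells and a larger share of cells that carry the RNA are not told apart by it. Replicate 1 of implanted cGAMP stood apart, with a median of 3049 UMIs per EC against 9523 to 14707.5 in the other libraries and with 37.9% of its ECs under 2000 UMIs. All 10 endothelial markers were found in every library, with a summed level of 6323 to 7510. All 9 epithelial tumour markers were found too, summing to 166 to 712 in 7 libraries and to 1117 in implanted cGAMP replicate 1. The 7 mural markers summed to 77.2 to 740.3, highest in the spontaneous cGAMP libraries, the 7 immune markers to 11.5 to 205, highest in implanted cGAMP replicate 1, and the 4 fibroblast markers to 7.73 to 37.1. The 5 proliferation markers summed to 100.2 to 304 in PBS and 21.4 to 44.1 in cGAMP libraries. These values move in part with model and treatment, and their part in the results was not tested, except where values without the cells concerned are given. Only 7 barcodes occurred in more than 1 library.

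After cGAMP, 7 of the 31 genes that passed the filter on low values rose in ECs of spontaneous tumours and none fell, beside 5.09% of all 10424 tested genes that rose and 7.59% that fell. In implanted tumours 9 of 31 rose and 2 fell, beside 8.6% and 16.4% of all tested genes. Those that rose in both models were Aldoa, Gapdh, Pgk1, Pkm and Slc16a3. Pfkfb3 and Tpi1 passed the test in spontaneous tumours, Slc2a1, Bnip3, P4ha2 and Ero1l in implanted tumours, and the 2 that fell in implanted tumours were Egln1 and Epas1. The median log2 fold change of the 31 genes was 0.03 in spontaneous and 0.08 in implanted tumours, beside -0.10 over all tested genes in each. Changes were tested with limma on log2(level + 1) over all 8 libraries, with Benjamini-Hochberg adjustment over all tested genes and a threshold of 0.05, and every log2 fold change below is on that scale with its SE. Hk2, the hexokinase isoform that is often induced in tumours, did not pass the filter. With 160 UMIs in all ECs its level was 0.269 to 7.30 CPM, and no order is read from it.

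**Figure D1:**
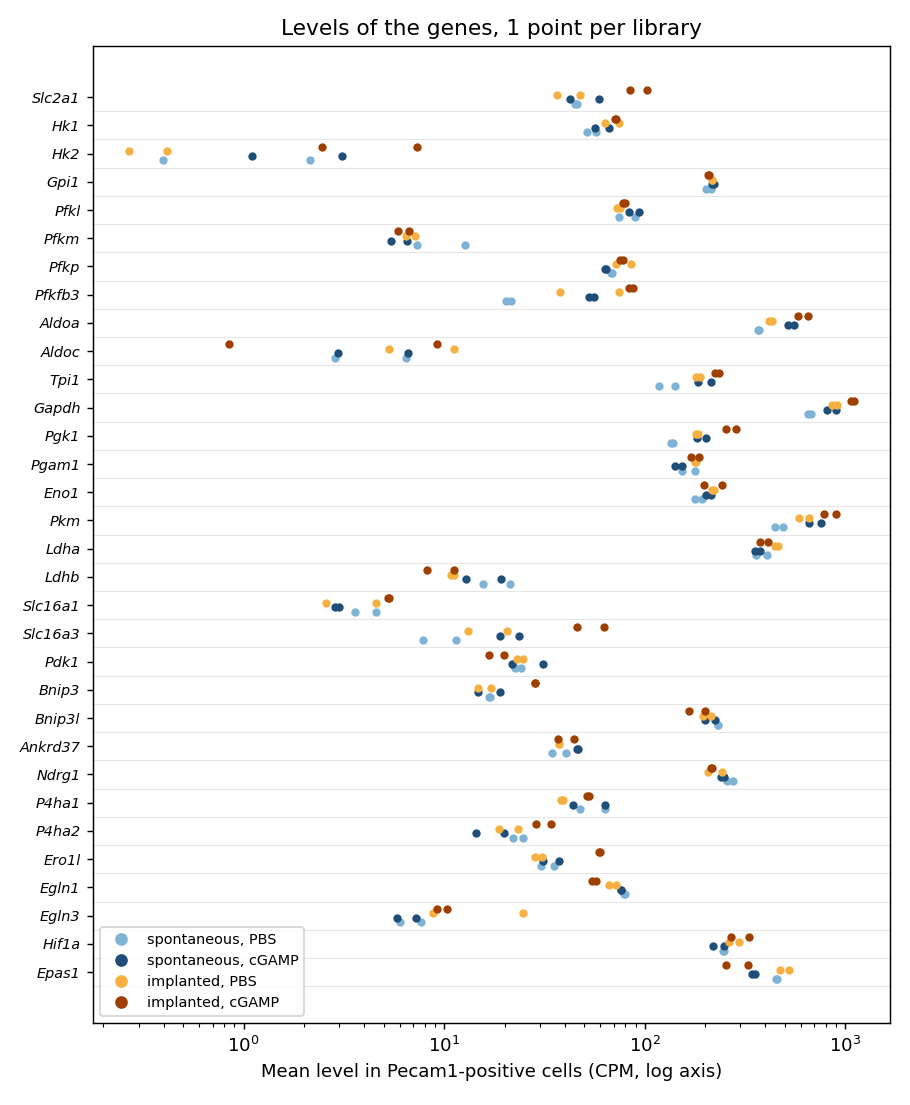
Mean level of the 32 genes in CPM (log axis) in Pecam1-positive cells, 1 point per library, with colours for the 4 groups. The separation of the implanted cGAMP libraries is visible for Slc2a1 (84.4 and 102 beside 36.4 to 59.4 in the other 6 libraries), and the spontaneous PBS libraries lie lowest for Aldoa, Tpi1, Gapdh, Pgk1 and Pkm.

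At the entry of glucose, Slc2a1 (chr4:119108711-119137983, mm10, GENCODE), the main glucose transporter of ECs, had levels of 45.7 and 44.9 in spontaneous PBS, 59.4 and 42.4 in spontaneous cGAMP, 47.8 and 36.4 in implanted PBS and 84.4 and 102 in implanted cGAMP libraries. The implanted cGAMP pair lay above all other libraries, and the other 3 groups overlapped. Its response was 1.14 ± 0.18, adjusted p = 0.00172 in implanted and 0.14 ± 0.18, adjusted p = 0.632 in spontaneous tumours. Hk1, the constitutive hexokinase, had 57.2 and 51.7 in spontaneous PBS, 66.3 and 56.3 in spontaneous cGAMP, 74.4 and 63.7 in implanted PBS and 72.1 and 71.3 in implanted cGAMP libraries, and no response was called (0.17 in spontaneous and 0.06 in implanted tumours). Gpi1, which interconverts the hexose phosphates, varied little, with 213 and 203 in spontaneous PBS, 216 and 221 in spontaneous cGAMP, 216 and 217 in implanted PBS and 209 and 206 in implanted cGAMP libraries. Both spontaneous cGAMP libraries were above and both implanted cGAMP libraries below their PBS libraries for Gpi1, by small amounts that passed no test.

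The phosphofructokinases commit glucose to glycolysis. Pfkl levels were 89.2 and 74.7 in spontaneous PBS, 93.3 and 83.9 in spontaneous cGAMP, 72.6 and 75.7 in implanted PBS and 79.7 and 77.7 in implanted cGAMP libraries. Those of Pfkp were 67.6 and 68.6 in spontaneous PBS, 63.5 and 64.3 in spontaneous cGAMP, 85.2 and 72.1 in implanted PBS and 75.0 and 77.9 in implanted cGAMP libraries. For neither isoform was a response called, with log2 fold changes of 0.11 and 0.08 for Pfkl and -0.09 and -0.04 for Pfkp in spontaneous and implanted tumours. Pfkm, the muscle isoform, was low at 5.46 to 12.7. Pfkfb3 (chr2:11471433-11554077), whose product fructose 2,6-bisphosphate activates phosphofructokinase and which is known to drive vessel sprouting, had 21.5 and 20.2 in spontaneous PBS, 52.8 and 56.1 in spontaneous cGAMP, 74.7 and 37.7 in implanted PBS and 87.0 and 83.0 in implanted cGAMP libraries. Spontaneous PBS libraries were lowest and did not overlap with any other group, while implanted PBS replicate 1 was near the cGAMP libraries. The response was 1.34 ± 0.24, adjusted p = 0.00701 in spontaneous tumours (2.54-fold) and 0.67 ± 0.24, adjusted p = 0.0712 in implanted tumours, the latter not called. The aldolase Aldoa (367 and 371 in spontaneous PBS, 553 and 519 in spontaneous cGAMP, 430.5 and 417 in implanted PBS and 651 and 582 in implanted cGAMP libraries) rose in both, by 0.54 ± 0.08, adjusted p = 0.00179 and by 0.54 ± 0.08, adjusted p = 0.00105, and in both models the cGAMP pair lay above the PBS pair. Aldoc, another aldolase, was low and scattered at 0.847 to 11.1.

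Tpi1, the triosephosphate isomerase of upper glycolysis, comes before the lower steps, which yield the ATP. It had 142 and 118 in spontaneous PBS, 214 and 184 in spontaneous cGAMP, 189 and 180.3 in implanted PBS and 225 and 234 in implanted cGAMP libraries. Its response passed the test in spontaneous (0.61 ± 0.11, adjusted p = 0.00585) and missed it in implanted tumours (0.31 ± 0.11, adjusted p = 0.0581), although in both models the groups did not overlap. Gapdh, the glyceraldehyde phosphate dehydrogenase that is often used as a reference gene, had 677 and 648 in spontaneous PBS, 898 and 809.5 in spontaneous cGAMP, 863 and 905 in implanted PBS and 1108 and 1068 in implanted cGAMP libraries. It rose by 0.36 ± 0.07, adjusted p = 0.0123 and 0.30 ± 0.07, adjusted p = 0.0157. Pgk1 (chrX:106187100-106203699), phosphoglycerate kinase and a classic HIF target, had 138 and 136 in spontaneous PBS, 201 and 181 in spontaneous cGAMP, 181 and 184 in implanted PBS and 284 and 254 in implanted cGAMP libraries, and rose by 0.48 ± 0.08, adjusted p = 0.00640 and 0.56 ± 0.08, adjusted p = 0.00151. The pyruvate kinase Pkm had 491 and 446 in spontaneous PBS, 753 and 657 in spontaneous cGAMP, 657 and 591 in implanted PBS and 899 and 784 in implanted cGAMP libraries, and rose by 0.59 ± 0.10, adjusted p = 0.00535 and 0.43 ± 0.10, adjusted p = 0.0124. For Gapdh, Pgk1 and Pkm the cGAMP pair was above the PBS pair in each model. Between these enzymes, Pgam1 (178 and 153 in spontaneous PBS, 153 and 142 in spontaneous cGAMP, 180.2 and 177 in implanted PBS and 185 and 169.9 in implanted cGAMP libraries) and Eno1 (193 and 179 in spontaneous PBS, 214 and 203 in spontaneous cGAMP, 217 and 221 in implanted PBS and 243 and 197 in implanted cGAMP libraries) had no called response, at -0.16 and -0.01 for Pgam1, the phosphoglycerate mutase, and 0.16 and 0.00 for Eno1, the enolase. Processed copies and close paralogues of Gapdh, Eno1 and Aldoa exist in the mouse genome, so the counts of these 3 genes are uncertain to the extent that reads were split among them.

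At the branch to lactate, Ldha, the lactate dehydrogenase subunit that favours lactate formation, had 405 and 358 in spontaneous PBS, 375 and 355 in spontaneous cGAMP, 448 and 463 in implanted PBS and 412 and 376 in implanted cGAMP libraries. The implanted PBS pair was the highest, the other 3 groups overlapped, and the responses were -0.06 and -0.21, not called. Ldhb, which favours the reverse reaction, was low with 15.6 and 21.4 in spontaneous PBS, 12.8 and 19.2 in spontaneous cGAMP, 11.2 and 10.8 in implanted PBS and 11.2 and 8.20 in implanted cGAMP libraries. Slc16a3 (chr11:120948480-120960868), the lactate exporter of glycolytic cells, showed a large response, with 11.4 and 7.83 in spontaneous PBS, 23.6 and 19.1 in spontaneous cGAMP, 20.5 and 13.1 in implanted PBS and 46.1 and 62.4 in implanted cGAMP libraries. In each model the cGAMP pair lay above the PBS pair, and the change was 1.09 ± 0.24, adjusted p = 0.0206 (2.12-fold) in spontaneous and 1.65 ± 0.24, adjusted p = 0.00135 (3.14-fold) in implanted tumours. Slc16a1, a lactate transporter that works in both directions, was low at 2.59 to 5.33 with 421 UMIs in all ECs. Pdk1, a kinase that inhibits pyruvate dehydrogenase, had 22.6 and 24.3 in spontaneous PBS, 31.1 and 21.9 in spontaneous cGAMP, 24.6 and 23.0 in implanted PBS and 16.8 and 19.8 in implanted cGAMP libraries, and no response was called (0.15 and -0.37).

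Among the HIF targets outside glycolysis, Bnip3, Ero1l and P4ha2 rose in implanted tumours. Bnip3 (chr7:138890836-138909519), a mitophagy receptor, had 16.8 and 16.8 in spontaneous PBS, 19.0 and 14.8 in spontaneous cGAMP, 17.1 and 14.8 in implanted PBS and 28.2 and 28.5 in implanted cGAMP libraries. Its response was 0.79 ± 0.15, adjusted p = 0.00473 in implanted and 0.00 ± 0.15, adjusted p = 0.987 in spontaneous tumours, and only the implanted cGAMP pair lay apart. Its relative Bnip3l had 232 and 232 in spontaneous PBS, 199.8 and 225 in spontaneous cGAMP, 196 and 214 in implanted PBS and 167 and 200.1 in implanted cGAMP libraries and no called response (-0.13 and -0.16). Ero1l (chr14:45283087-45318771), an oxidase that forms disulphide bonds in the endoplasmic reticulum, had 30.4 and 35.1 in spontaneous PBS, 37.5 and 31.0 in spontaneous cGAMP, 30.9 and 28.3 in implanted PBS and 59.8 and 59.1 in implanted cGAMP libraries. Here too the 6 other libraries overlapped and the implanted cGAMP pair lay apart, 1.98-fold above implanted PBS, with 0.98 ± 0.12, adjusted p = 0.000566 in implanted and 0.06 ± 0.12, adjusted p = 0.795 in spontaneous tumours. P4ha2 (chr11:54100095-54131665), a collagen prolyl hydroxylase, had 24.8 and 22.1 in spontaneous PBS, 19.8 and 14.4 in spontaneous cGAMP, 18.7 and 23.3 in implanted PBS and 28.6 and 34.2 in implanted cGAMP libraries, with a rise of 0.56 ± 0.18, adjusted p = 0.0451 in implanted tumours. In spontaneous tumours both cGAMP libraries lay below both PBS libraries, a difference of -0.45 ± 0.18 that was not called. P4ha1, the other collagen prolyl hydroxylase subunit, had 47.8 and 63.0 in spontaneous PBS, 63.5 and 43.9 in spontaneous cGAMP, 38.4 and 39.1 in implanted PBS and 51.8 and 53.0 in implanted cGAMP libraries, at -0.06 and 0.43, not called. Ankrd37, a sensitive HIF target of poorly known function, had 40.5 and 34.5 in spontaneous PBS, 46.6 and 46.2 in spontaneous cGAMP, 37.6 and 37.3 in implanted PBS and 37.1 and 44.6 in implanted cGAMP libraries, at 0.30 and 0.12, not called. Ndrg1, a stress-induced gene, had 276 and 258 in spontaneous PBS, 248 and 241 in spontaneous cGAMP, 243 and 208 in implanted PBS and 213 and 216 in implanted cGAMP libraries, at -0.13 and -0.07, not called.

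Of the oxygen-sensing genes, Egln1 and Epas1 fell in implanted tumours. Egln1, the main prolyl hydroxylase that marks HIF alpha subunits, had 78.7 and 80.0 in spontaneous PBS, 76.5 and 76.3 in spontaneous cGAMP, 72.2 and 66.0 in implanted PBS and 54.8 and 57.4 in implanted cGAMP libraries, and the implanted cGAMP pair was the lowest, with a fall called in implanted tumours (-0.29 ± 0.09, adjusted p = 0.0350) and not in spontaneous ones (-0.05 ± 0.09, adjusted p = 0.726). Egln3, a hydroxylase that HIF itself induces, had 6.05 and 7.71 in spontaneous PBS, 7.23 and 5.80 in spontaneous cGAMP, 24.7 and 8.75 in implanted PBS and 10.3 and 9.19 in implanted cGAMP libraries, with implanted PBS replicate 1 far above its partner and no called response. Hif1a, which encodes the widely expressed alpha subunit, had 246 and 248 in spontaneous PBS, 247 and 219.7 in spontaneous cGAMP, 295 and 262 in implanted PBS and 329 and 269 in implanted cGAMP libraries, at -0.08 and 0.10, not called. Epas1 (chr17:86753700-86833410), which encodes the alpha subunit typical of ECs, had 449 and 458 in spontaneous PBS, 344 and 353 in spontaneous cGAMP, 472 and 524 in implanted PBS and 254 and 326 in implanted cGAMP libraries. Both cGAMP pairs lay below their PBS pairs, with -0.79 ± 0.11, adjusted p = 0.00100 in implanted tumours and -0.38 ± 0.11, adjusted p = 0.0531 in spontaneous tumours, the latter just outside the threshold.

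**Figure D2:**
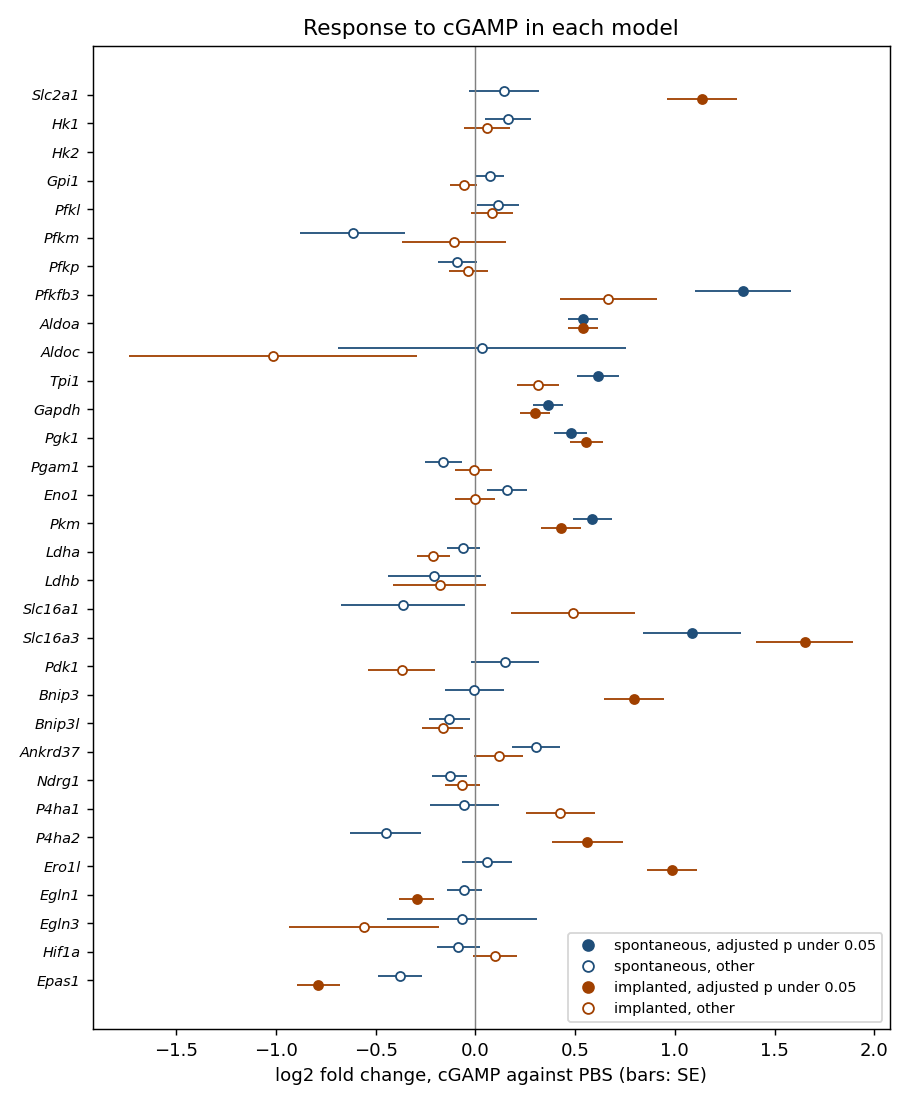
Response to cGAMP of each gene (log2 fold change, cGAMP against PBS, horizontal axis) in spontaneous and implanted tumours, with bars for ± 1 SE and filled points for adjusted p under 0.05. Hk2 did not pass the filter and has no point. Slc16a3 has the largest called response in implanted tumours (1.65) and Pfkfb3 in spontaneous tumours (1.34), while Epas1 lies at -0.79 in implanted tumours.

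Leaving out single libraries changed several of these calls. Without spontaneous cGAMP replicate 1 only 1 of the 7 calls was left in spontaneous tumours (Aldoa), with adjusted p values of 0.0567 to 0.143 for the other 6. Pfkfb3 and Slc16a3 also lost theirs without spontaneous cGAMP replicate 2 (0.0608 and 0.0654), Gapdh without spontaneous PBS replicate 1 (0.0511), and Gapdh and Slc16a3 without spontaneous PBS replicate 2 (0.0765 and 0.121). With no filter on low values the spontaneous response of Slc16a3 was not called (0.0814). In implanted tumours Slc2a1, Aldoa, Pgk1, Slc16a3, Bnip3, Ero1l and Epas1 kept their calls in all 8 such fits. Egln1 lost its call in every one of them (0.0519 to 0.20), P4ha2 without either implanted PBS library, implanted cGAMP replicate 2 or either spontaneous PBS library (0.0598 to 0.246), and also over ECs of at least 2000 UMIs (0.261) or with no filter (0.108), Gapdh without either implanted PBS library or implanted cGAMP replicate 1 (0.0524 to 0.0974), and Pkm without implanted PBS replicate 2 or implanted cGAMP replicate 1 (0.102 and 0.0559). Without the ECs that held a UMI of an epithelial, immune, mural or fibroblast marker (38.2% to 69.3% of ECs per library), Gapdh, Bnip3, Egln1 and P4ha2 lost their calls in implanted tumours and Gapdh in spontaneous ones. With median-of-ratios scaling, which moved the median of all genes in implanted tumours from -0.10 to near 0, all genes called higher and lower changed from 896 and 1713 to 1189 and 1110 in implanted and from 531 and 791 to 661 and 351 in spontaneous tumours. The genes described here then gave 11 higher and 1 lower in implanted and 7 higher in spontaneous tumours, and it was the fall of Egln1 that was no longer called (-0.19).

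Whether the response differed between the models was tested as the difference of the 2 responses. None of the 31 genes was called by limma, beside 0.201% of all tested genes with a larger and 0.46% with a smaller response in implanted tumours, although 5 had an unadjusted p under 0.05. The largest of these 5 were P4ha2 (1.01 ± 0.25, adjusted p = 0.120), Slc2a1 (0.99 ± 0.25, adjusted p = 0.123), Ero1l (0.93 ± 0.18, adjusted p = 0.0559) and Bnip3 (0.80 ± 0.21, adjusted p = 0.147), each with a larger response in implanted tumours. Over ECs of at least 2000 UMIs, or with UMIs summed over cells, the difference for Ero1l was called (1.02 and 1.27, adjusted p = 0.0278 and 0.00806).

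The models were also compared within each treatment. After PBS, 5 of the 31 genes were higher in implanted tumours and none was lower, beside 3.39% and 4.44% of all tested genes. They were Pfkfb3 (1.31 ± 0.24, adjusted p = 0.0129), Tpi1 (0.51 ± 0.11, adjusted p = 0.0205), Gapdh (0.42 ± 0.07, adjusted p = 0.0103), Pgk1 (0.41 ± 0.08, adjusted p = 0.0193) and Pkm (0.41 ± 0.10, adjusted p = 0.0373), all enzymes of glycolysis. For each of these the implanted PBS pair lay above the spontaneous PBS pair. After cGAMP, 7 were higher and 1 was lower in implanted tumours, beside 5.23% and 8.53%. The higher ones were Slc2a1 (0.88 ± 0.18, adjusted p = 0.0135), Slc16a3 (1.30 ± 0.24, adjusted p = 0.0105), P4ha2 (0.85 ± 0.18, adjusted p = 0.0153), Ero1l (0.78 ± 0.12, adjusted p = 0.00556), Bnip3 (0.72 ± 0.15, adjusted p = 0.0150), Pgk1 (0.49 ± 0.08, adjusted p = 0.00755) and Gapdh (0.35 ± 0.07, adjusted p = 0.0152), and the lower one was Egln1 (-0.44 ± 0.09, adjusted p = 0.0128). Only Gapdh and Pgk1 were called under both treatments. The median log2 fold change of the 31 genes was 0.12 after PBS and 0.21 after cGAMP, beside -0.06 and -0.07 over all tested genes. The comparisons after PBS and after cGAMP share no library with each other, but each shares libraries with the 2 responses above.

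These calls rest on few libraries. Without spontaneous PBS replicate 2 none of the 5 calls after PBS was left (adjusted p = 0.0966 to 0.234), 2 were left without spontaneous PBS replicate 1 or implanted PBS replicate 1, and 1 without implanted PBS replicate 2, while Pkm was also lost without either spontaneous cGAMP library (0.0522 and 0.0524). Without spontaneous cGAMP replicate 2 none of the 8 calls after cGAMP was left (0.0633 to 0.135), Gapdh was lost without implanted cGAMP replicate 1 (0.0509) and Egln1 without spontaneous cGAMP replicate 1 (0.0671). Without ECs that held a UMI of a proliferation marker, 3 calls after PBS were left, with Pgk1 at 0.136 and Pkm at 0.155. Without ECs that held a marker of another cell type, 2 calls were left in each comparison. With no filter on low values none of the 5 calls after PBS was left (0.0511 to 0.119), and Slc2a1, Gapdh, Slc16a3 and P4ha2 lost theirs after cGAMP (0.0506 to 0.0578). With median-of-ratios scaling, all genes called higher and lower changed from 353 and 463 to 482 and 255 after PBS and from 545 and 889 to 758 and 543 after cGAMP, and those described here from 5 and 0 to 6 and 0 and from 7 and 1 to 10 and 1.

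Tip-gated ECs were those with a UMI of at least 4 of the 6 genes Pgf, Adm, Apln, Esm1, Trp53i11 and Cxcr4, none of which belongs to the genes described here. There were 544 such cells, 40 to 92 per library. Their share of ECs was 5.39% and 6.66% in spontaneous PBS, 12.7% and 8.23% in spontaneous cGAMP, 8.60% and 5.38% in implanted PBS, and 6.02% and 12.1% in implanted cGAMP libraries. Among tip cell genes such as Adm, Apln and Cxcr4 several are raised by hypoxia, so the gate is not independent of the HIF targets described here. Gate and genes were also both chosen with earlier results of these data known. The gate is a gate on 6 genes and not a cell type call. It also picks deep cells, with a median of 14437.5 to 24787 UMIs per library against 2813 to 13756 in the other ECs, the latter lowest in implanted cGAMP replicate 1. The 9 epithelial markers summed to 118 to 553 in tip-gated and 172 to 1177 in the other ECs, and were lower in the tip-gated ECs of every library. The 7 mural markers summed to 38.3 to 848 in tip-gated and 78.1 to 725 in the other ECs, the 7 immune markers to 7.48 to 156 and 10.8 to 208, and the 4 fibroblast markers to 0 to 32.1 and 8.12 to 40.1. The 4 red blood cell markers reached 243 in tip-gated ECs of spontaneous cGAMP replicate 1, against 3.73 in its other ECs, and were at most 100.2 in the other libraries. In implanted cGAMP replicate 2 the mural and immune sums were higher in tip-gated ECs (237 and 99.2) than in the others (111 and 48.5). The 10 endothelial markers summed to 6971 to 7637 and 6280 to 7533.

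Tip-gated ECs carried more RNA of glycolysis from glucose uptake to lactate export, and less Epas1. Within the libraries, 24 of the 32 genes were higher in tip-gated ECs and 2 were lower, beside 10.0% and 16.0% of all 10873 tested genes (limma on the difference within each library, the 6 gate genes left out). The median log2 fold difference of the 32 genes was 0.73, beside -0.09 over all tested genes. Summed over the 32 genes, the level was 6478 to 8010 in tip-gated ECs of 6 libraries and 10352 and 11541 in those of implanted cGAMP, against 4254 to 5669 in the other ECs.

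Slc16a3 had the largest difference, with a lowest, median and highest level over the 8 libraries of 41.2, 78.3 and 314 in tip-gated and 5.22, 14.2 and 36.2 in the other ECs (log2 fold difference 2.57 ± 0.36, adjusted p = 0.00312). With no filter on low values the same difference was not called (adjusted p = 0.107). Every tip-gated value lay above every other value. Slc2a1, the glucose transporter at the start of the pathway, had 69.4, 95.1 and 394 in tip-gated and 34.6, 43.3 and 72.7 in the other ECs (1.45 ± 0.13, adjusted p = 0.000895), again higher in 8 of 8 libraries, although the lowest tip-gated value was within the range of the other ECs.

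Among the enzymes, Tpi1 had 251, 379 and 695 against 108, 171 and 202 (1.31 ± 0.10, adjusted p = 0.000774), with no overlap. Pgk1 had 214, 368 and 648 against 124, 168 and 262 (1.20 ± 0.12, adjusted p = 0.00116), and here the ranges met, although each library was higher in tip-gated ECs. Pkm had 993, 1301 and 1688 against 408, 598 and 850.1 (1.17 ± 0.08, adjusted p = 0.000774), with no overlap. The low-level isoforms Hk2, Pfkm and Aldoc, none of them called, were higher in tip-gated ECs in 5, 3 and 1 of 8 libraries. The other called enzymes from hexokinase to enolase differed less than Tpi1, Pgk1 and Pkm, but in the same direction in 8 of 8 libraries. The differences were 0.87 ± 0.07 for Pfkp, 0.83 ± 0.10 for Eno1, 0.82 ± 0.09 for Aldoa, 0.82 ± 0.09 for Pfkl, 0.82 ± 0.11 for Pfkfb3, 0.75 ± 0.07 for Gapdh, 0.70 ± 0.08 for Pgam1, 0.64 ± 0.07 for Gpi1 and 0.38 ± 0.06 for Hk1, with adjusted p values between 0.000774 and 0.00607.

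For lactate dehydrogenase the differences were smaller. Ldha was 389 to 639 in tip-gated and 339 to 459.6 in the other ECs (0.38 ± 0.09, adjusted p = 0.0194), higher in 7 of 8 libraries. Ldhb was 2.99 to 15.0 and 8.70 to 22.3 (-0.79 ± 0.21, adjusted p = 0.0312), lower in 7 of 8 libraries. Pdk1 was higher in 8 of 8 (0.58 ± 0.12, adjusted p = 0.0120).

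Of the HIF targets, Ankrd37 had 95.9, 121 and 152 in tip-gated and 26.8, 32.6 and 40.2 in the other ECs (1.86 ± 0.17, adjusted p = 0.000908), with no overlap. Egln3 had 18.4, 33.9 and 121 against 3.45, 5.70 and 15.6 (2.38 ± 0.29, adjusted p = 0.00191), also with no overlap. Bnip3 had 18.9, 53.7 and 139.9 against 13.1, 14.4 and 24.4 (1.72 ± 0.24, adjusted p = 0.00322), and Ero1l 39.7, 64.9 and 234 against 27.4, 31.6 and 48.6 (1.29 ± 0.12, adjusted p = 0.000908). For both the ranges overlapped, but each library was higher in tip-gated ECs. Smaller rises were called for Egln1 (0.86 ± 0.09), P4ha1 (0.69 ± 0.08), Bnip3l (0.40 ± 0.07) and Hif1a (0.30 ± 0.08, adjusted p = 0.0290). Epas1 was lower in 8 of 8 libraries, with 165, 214 and 343 in tip-gated and 259.7, 416 and 539 in the other ECs (-0.87 ± 0.12, adjusted p = 0.00336). The rise of Hif1a was not called by limma with the other ECs weighted to depth (0.18, adjusted p = 0.0929). Nor was it called with gates of 3 or 5 genes (adjusted p = 0.118 and 0.0613). No opposite shift of the alpha subunit genes is therefore read from these values. Not called were P4ha2 (0.21), Ndrg1 (-0.08), Aldoc (-0.80), Pfkm (-0.37), Slc16a1 (-0.56) and Hk2 (0.18).

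**Figure D3:**
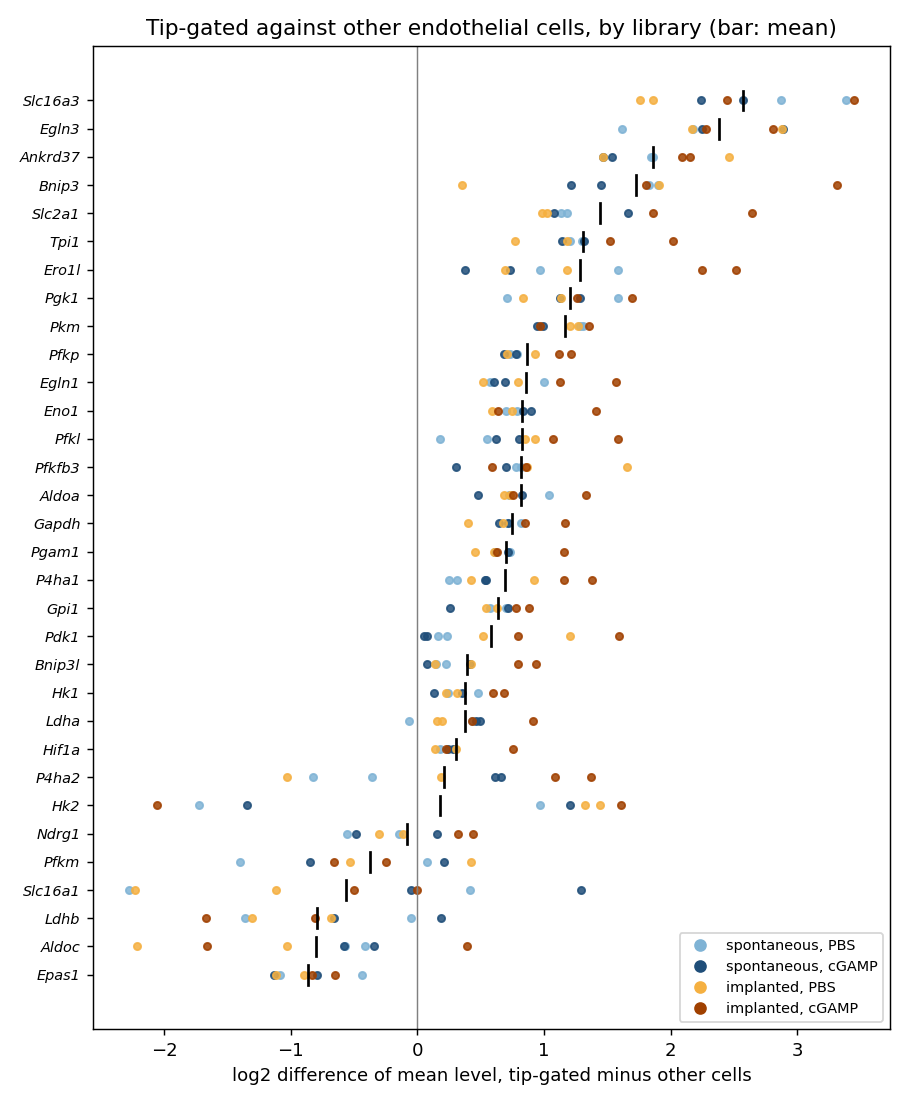
Log2 difference of the mean level (horizontal axis) between tip-gated and other ECs of the same library for each of the 32 genes, with 1 point per library coloured by group and a black bar for the mean. Points of the glycolytic enzymes lie above 0 apart from 1 library for Ldha and the low-level isoforms, all 8 points of Epas1 lie at or below -0.44, and those of Bnip3 spread from 0.36 to 3.32.

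**Figure D4:**
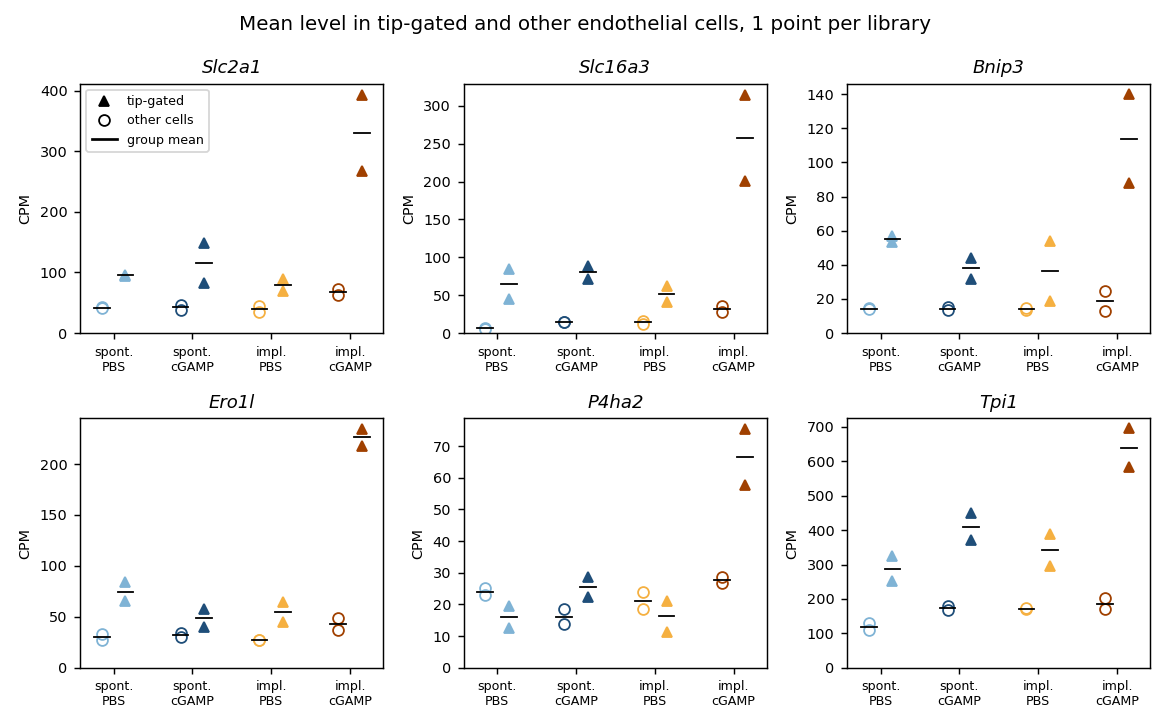
Mean levels in CPM (linear axes from 0) of Slc2a1, Slc16a3, Bnip3, Ero1l, P4ha2 and Tpi1 in tip-gated ECs (triangles) and other ECs (circles) of each library by group, with a line for the group mean. The tip-gated values of the implanted cGAMP libraries are the highest in all 6 panels, for example 267 and 394 for Slc2a1, while the other ECs of those libraries lie at 62.2 and 72.7.

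Depth differed between the compared cells. With the other ECs weighted to the depth of the tip-gated ones, 25 of the 26 calls remained and Hif1a was lost (0.18, adjusted p = 0.0929). With each cell drawn down to 2000 UMIs, 16 higher and 0 lower calls remained, and Hk1, Pfkfb3, Eno1, Ldha, Ldhb, Pdk1, Bnip3l, P4ha1, Hif1a and Epas1 were not called (Eno1 at 0.0501 and Epas1 at -0.96 with 0.0974). Without ECs that held a marker of another cell type, Hk1, Ldha, Pdk1, Bnip3l and Hif1a were not called (0.0762 to 0.208). Leaving out single libraries lost only the calls of Ldha, Ldhb and Hif1a among the 26, at least 1 of them in each of the 8 fits (adjusted p = 0.052 to 0.0974), and calls were gained in 1 fit each by Slc16a1 (-0.90), P4ha2 (0.37) and Aldoc (-1.06). With median-of-ratios scaling, all genes called higher and lower changed from 1090 and 1738 to 1366 and 1413, and those described here stayed at 24 and 2.

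The levels were also read along the number of gate genes. With each EC of at least 2000 UMIs drawn down to 2000 UMIs and grouped by the number of gate genes found, the groups of 0, 1, 2, 3, 4 and 5 or 6 gate genes held 2101, 1830, 1145, 544, 284 and 254 ECs. Slc16a3 had mean levels over the libraries of 10.0, 15.2, 21.9, 45.4, 77.8 and 177 along these groups. Ankrd37 went from 17.4 over 30.9, 40.6, 59.6 and 90.1 to 156. Slc2a1 went from 39.1 over 45.3, 54.1, 71.3 and 132 to 184. All 3 increased at each step, and so did Pkm (from 488 to 1552), Gapdh (from 744 to 1679) and Egln3 (from 3.34 to 57.4). Epas1 went from 471 over 378, 413, 376 and 259.7 to 173, with most of the fall at 4 and more gate genes. Of the 24 genes higher in tip-gated ECs, 13 increased at every step and 11 did not. Among the latter, Bnip3 went from 15.9 over 18.4, 8.29, 24.4 and 55.5 to 84.5, Pfkfb3 was lower at the last step, at 78.2 after 98.6, and Hif1a increased at 1 of 5 steps. None of the other 8 genes went 1 way throughout. Ldha was lower at first and then higher, from 389.6 over 359 with 2 gate genes to 542. The number of gate genes was counted before cells were drawn down, so median depth rose along the groups from 9428 to 22121.5 UMIs, and no test was made over them.

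**Figure D5:**
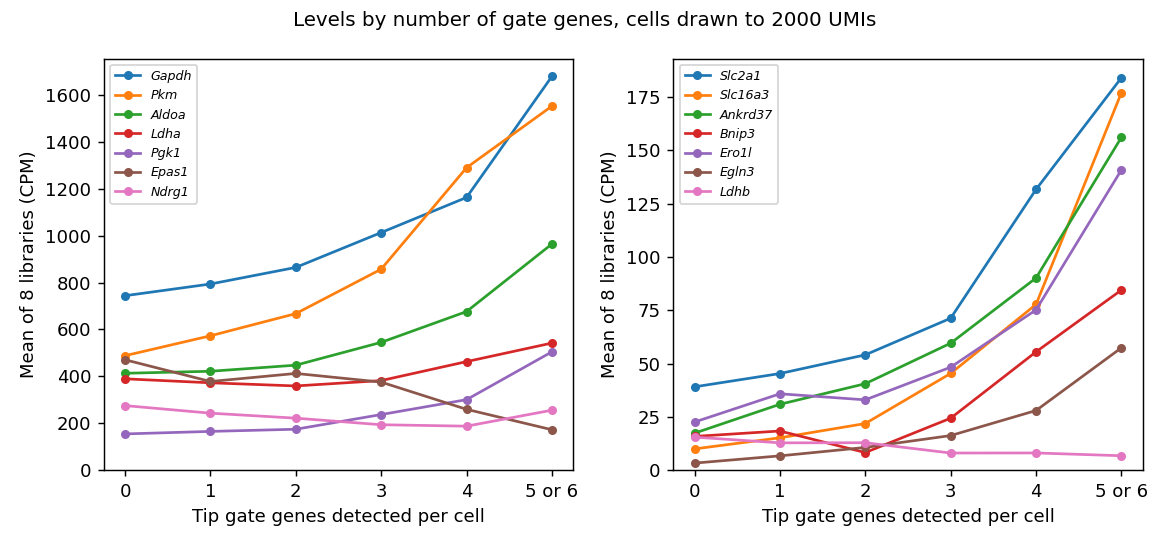
Mean level over the 8 libraries in CPM (linear axes from 0), after each EC was drawn down to 2000 UMIs, against the number of the 6 gate genes found in the cell, for 14 of the genes on 2 scales. Slc16a3 climbs from 10.0 to 177 and Ankrd37 from 17.4 to 156, while Epas1 falls from 471 to 173.

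Whether the difference between tip-gated and other ECs itself varied with treatment or model was tested within the same fit. By limma 0 of the 32 genes were called for cGAMP minus PBS and 0 for implanted minus spontaneous, beside 0.0% of all 10873 tested genes in each, while 3 and 5 of the 32 had an unadjusted p under 0.05. The smallest of these unadjusted p values was that of P4ha2 for cGAMP minus PBS (1.44 ± 0.28, adjusted p = 0.211). Its level was 19.4 and 12.5 in spontaneous PBS, 28.8 and 22.3 in spontaneous cGAMP, 21.2 and 11.2 in implanted PBS and 57.8 and 75.5 in implanted cGAMP tip-gated ECs, above the other ECs in the cGAMP libraries and below them in 3 of the 4 PBS libraries.

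Comparisons of treatments and models inside the gate were not among the planned ones. Cells were gated after treatment, and the share of ECs that passed varied between libraries. A change in which cells pass and a change within those cells cannot be told apart here. Tested within tip-gated ECs alone, the response to cGAMP was large in implanted tumours. Of the 30 genes that passed the filter there, 10 rose and none fell, beside 6.04% and 9.81% of all 10284 tested genes, and the median log2 fold change was 0.33 beside -0.17 over all. In spontaneous tumours 0 of 30 were called by limma in either direction, beside 5.46% and 4.42%, with 8 at an unadjusted p under 0.05. The difference of the responses was called for 4 genes, each larger in implanted tumours, and for none the other way, beside 0.827% and 1.27%. These 4 were Ero1l, Bnip3, Slc16a3 and Slc2a1. In the tip-gated ECs the summed immune markers were 19.2 and 24.5 in implanted PBS and 156 and 99.2 in implanted cGAMP libraries, against 7.48 and 16.7 in spontaneous PBS and 24.6 and 22.3 in spontaneous cGAMP libraries. The summed mural markers were 113 and 61.2 in implanted PBS, 38.3 and 237 in implanted cGAMP, 71.3 and 87.5 in spontaneous PBS and 848 and 726 in spontaneous cGAMP libraries. The immune sums of both cGAMP pairs lay above their PBS pairs, with the wider gap in implanted tumours, and so did the mural sums in spontaneous tumours. Their part in the responses within the gate was not tested.

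In tip-gated ECs Slc2a1 had 95.3 and 94.8 in spontaneous PBS, 149 and 82.9 in spontaneous cGAMP, 89.9 and 69.4 in implanted PBS and 267 and 394 in implanted cGAMP libraries. The implanted cGAMP pair lay far above the rest, with a response of 2.02 ± 0.25, adjusted p = 0.000109 in implanted and 0.22 ± 0.25 in spontaneous tumours and a difference between them of 1.80 ± 0.35, adjusted p = 0.0166. Slc16a3 had 84.9 and 44.5, 88.9 and 71.7, 62.6 and 41.2 and 201 and 314 in the same order of groups. Its response was 2.28 ± 0.30, adjusted p = 0.000153 in implanted and 0.37 ± 0.30 in spontaneous tumours, with a difference of 1.91 ± 0.42, adjusted p = 0.0298. Ero1l had 83.9 and 65.6, 58.0 and 39.7, 64.3 and 44.8 and 234 and 218. Here the spontaneous cGAMP pair lay below the spontaneous PBS pair, and the responses were 2.05 ± 0.23, adjusted p = 5.02e-05 in implanted and -0.62 ± 0.23, adjusted p = 0.118 in spontaneous tumours, with a difference of 2.67 ± 0.33, adjusted p = 0.000544. Bnip3 had 57.1 and 53.2, 43.9 and 32.0, 54.1 and 18.9 and 87.9 and 139.9. Its spontaneous cGAMP pair was also below the PBS pair, and the responses were 1.76 ± 0.37, adjusted p = 0.00540 and -0.54 ± 0.37, adjusted p = 0.436, with a difference of 2.30 ± 0.53, adjusted p = 0.0369.

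P4ha2 rose as well in tip-gated ECs of implanted tumours (2.03 ± 0.34, adjusted p = 0.00110), with a difference of responses of 1.36 ± 0.49, adjusted p = 0.200. The other rises were those of Tpi1 (0.91 ± 0.17), Pgk1 (0.92 ± 0.20), P4ha1 (0.91 ± 0.23), Aldoa (0.79 ± 0.14) and Gapdh (0.68 ± 0.10), with adjusted p values of 0.000426 to 0.0147. Between the models, 1 gene was higher and none lower in tip-gated ECs of implanted tumours after PBS, beside 1.79% and 0.603% of all tested genes, namely Pfkfb3 (1.68 ± 0.36, adjusted p = 0.0214), with 36.2 and 34.6 in spontaneous and 200.2 and 66.6 in implanted PBS libraries. After cGAMP 12 were higher and none lower, beside 2.37% and 3.53%. They were Slc2a1, Pfkp, Aldoa, Tpi1, Gapdh, Pgk1, Pkm, Slc16a3, Bnip3, P4ha2, Ero1l and Hif1a, from 0.54 ± 0.12 for Hif1a to 2.21 ± 0.23 for Ero1l.

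The calls of Slc2a1, Slc16a3, Ero1l, P4ha2, Tpi1, Aldoa and Gapdh in tip-gated ECs of implanted tumours held whichever library was left out. Pgk1, Bnip3 and P4ha1 lost theirs without implanted PBS replicate 2 or implanted cGAMP replicate 2 (0.0566 to 0.185), and P4ha1 also without implanted cGAMP replicate 1 (0.0589). Of the 4 differences of responses, that of Ero1l held in all 8 fits, Bnip3 was lost in 7 (0.0513 to 0.202), Slc16a3 without implanted PBS replicate 2, implanted cGAMP replicate 2 or any spontaneous library but PBS replicate 2 (0.0645 to 0.174), and Slc2a1 without implanted PBS replicate 2, implanted cGAMP replicate 2 or spontaneous cGAMP replicate 2 (0.0817 to 0.115). Pfkfb3 after PBS was lost without implanted PBS replicate 1 or either spontaneous PBS library (0.0566 to 0.244). Of the 12 calls after cGAMP, 1 was left without spontaneous cGAMP replicate 2, 2 without implanted cGAMP replicate 2, 4 without implanted cGAMP replicate 1 and 5 without spontaneous cGAMP replicate 1, and Aldoa and Pgk1 were lost without either implanted PBS library. With median-of-ratios scaling 16 genes in place of 10 rose in tip-gated ECs of implanted tumours, and all genes called higher and lower changed from 621 and 1009 to 828 and 508.

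The response was not limited to tip-gated ECs. In the ECs outside the gate 7 genes rose and 2 fell in implanted tumours, beside 7.92% and 14.3% of all tested genes, and 6 rose and none fell in spontaneous tumours, beside 4.51% and 5.91%. In implanted tumours the rises were those of Slc16a3 (1.15 ± 0.22, adjusted p = 0.00581), Slc2a1 (0.77 ± 0.14, adjusted p = 0.00496), Pfkfb3 (0.74 ± 0.21, adjusted p = 0.0294), Ero1l (0.61 ± 0.15, adjusted p = 0.0197), Aldoa, Pgk1 and Pkm, and the falls those of Epas1 (-0.78 ± 0.12, adjusted p = 0.00176) and Egln1 (-0.44 ± 0.09, adjusted p = 0.00970). The fall of Egln1 was thus called outside the gate, while in tip-gated ECs its response was 0.26 ± 0.19 and not called. In spontaneous tumours the rises were those of Pfkfb3 (1.35 ± 0.21, adjusted p = 0.00326), Slc16a3 (1.09 ± 0.22, adjusted p = 0.0147), Pkm, Tpi1, Aldoa and Gapdh. Some genes called over all ECs were not called by limma outside the gate. In implanted tumours these were Gapdh (0.21, adjusted p = 0.107), Bnip3 (0.33, adjusted p = 0.378) and P4ha2 (0.38, adjusted p = 0.161). In spontaneous tumours it was Pgk1 (0.39, adjusted p = 0.0663). Whether the responses inside and outside the gate differed was tested only averaged over the models, as the tip difference between treatments, in which no gene was called.

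Further genes of the same pathways were read from 2 lists, 30 other glycolysis and pyruvate genes, of which 17 passed the filter (18 in the tip comparison), and 41 other HIF target and oxygen-sensing genes, of which 34 passed (35 in the tip comparison). After cGAMP 0 rose and 1 fell in spontaneous tumours, which was Mpc1 (-0.45 ± 0.08, adjusted p = 0.00543), a subunit of the mitochondrial pyruvate carrier, beside 5.09% and 7.59% of all tested genes. In implanted tumours 0 rose and 4 of 17 fell, beside 8.6% and 16.4%, among them the glucose transporter gene Slc2a8 (-0.67 ± 0.20, adjusted p = 0.0340), Bpgm (-0.58 ± 0.13, adjusted p = 0.00953), which makes 2,3-bisphosphoglycerate, and Mpc1 (-0.51 ± 0.08, adjusted p = 0.00134). The median log2 fold changes of the list were -0.18 and -0.17, beside -0.10 over all tested genes in each. None was called between the models after PBS, and after cGAMP Pgm2, a phosphoglucomutase, was higher (0.72 ± 0.17, adjusted p = 0.0218) and Bpgm lower (-0.48 ± 0.13, adjusted p = 0.0371) in implanted tumours. In tip-gated ECs 2 of 18 were higher and 2 lower, beside 10.0% and 16.0%, of which Pgm2 (1.15 ± 0.09, adjusted p = 0.000774), Tigar (-0.65 ± 0.19, adjusted p = 0.0451), which lowers fructose 2,6-bisphosphate, and Mpc2 (-0.45 ± 0.08, adjusted p = 0.00894) differed most.

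Of the HIF list, 1 rose and 1 fell after cGAMP in spontaneous and 4 of 34 rose and 2 fell in implanted tumours, beside 5.09% and 7.59% of all tested genes in spontaneous and 8.6% and 16.4% in implanted tumours. Lox, a collagen cross-linking oxidase, fell in both (-1.32 ± 0.23, adjusted p = 0.00603 and -0.71 ± 0.23, adjusted p = 0.0492), and Mif, a cytokine, rose in spontaneous tumours (0.42 ± 0.12, adjusted p = 0.0489). Vegfa, the main growth factor of vessels, rose in implanted tumours (1.68 ± 0.34, adjusted p = 0.00620), where its levels were 8.17 and 18.0 after PBS and 40.8 and 41.9 after cGAMP, and so did Angptl4, a lipase inhibitor (0.73 ± 0.16, adjusted p = 0.0106). The medians of the list were 0.01 and 0.13, beside -0.10 over all tested genes in each. In implanted against spontaneous tumours 2 were higher and 2 lower after PBS, beside 3.39% and 4.44%, led by the endothelin gene Edn1 (1.20 ± 0.17, adjusted p = 0.00392), the lysyl hydroxylase gene Plod1 (-0.43 ± 0.07, adjusted p = 0.00925) and the angiopoietin receptor gene Tek (-0.36 ± 0.09, adjusted p = 0.0432). After cGAMP 7 were higher and 3 lower, beside 5.23% and 8.53%, led by Vegfa (1.28 ± 0.34, adjusted p = 0.0361), the lipoprotein receptor gene Vldlr (1.27 ± 0.26, adjusted p = 0.0151) and Lox (0.82 ± 0.23, adjusted p = 0.0450).

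In tip-gated ECs 11 of 35 genes of the HIF list were higher and 6 lower, beside 10.0% and 16.0% of all tested genes, with a median of 0.13 beside 0.03 for the glycolysis list and -0.09 over all tested genes. Lox had the largest difference, downwards (-2.72 ± 0.31, adjusted p = 0.00160), followed by the adenylate kinase gene Ak4 (1.76 ± 0.18, adjusted p = 0.00116) and Vldlr (1.36 ± 0.28, adjusted p = 0.0128). No gene of either list was called for the difference of the responses over all ECs, with 1 of 17 and 3 of 34 at an unadjusted p under 0.05 by limma. Within tip-gated ECs of implanted tumours, 11 of the 34 genes of the HIF list rose and none fell after cGAMP, beside 6.04% and 9.81%, led by Vegfa (3.72 ± 0.44, adjusted p = 7.39e-05), Edn1 (2.60 ± 0.44, adjusted p = 0.00102) and Vldlr (2.38 ± 0.68, adjusted p = 0.0280). In spontaneous tumours 3 rose and 2 fell there, beside 5.46% and 4.42%, led by Bhlhe41 (-2.82 ± 0.78, adjusted p = 0.0335), Stc2 (2.79 ± 0.51, adjusted p = 0.00239) and Edn1 (1.89 ± 0.44, adjusted p = 0.0116), a transcriptional repressor, a secreted glycoprotein and the endothelin precursor. Of the 16 genes of the glycolysis list tested there, 2 rose and 4 fell in tip-gated ECs of implanted tumours, led by Slc2a8 (-1.44 ± 0.44, adjusted p = 0.0410), Pgm2 (1.31 ± 0.27, adjusted p = 0.00487) and Mpc1 (-0.91 ± 0.20, adjusted p = 0.00613), and none was called in spontaneous tumours. The difference of the responses within tip-gated ECs was called for Vegfa (2.87 ± 0.62, adjusted p = 0.0275), Angptl4 (1.06 ± 0.22, adjusted p = 0.0213), Pgm2 (2.13 ± 0.39, adjusted p = 0.0109) and Bsg (0.72 ± 0.17, adjusted p = 0.0385), which encodes a partner protein of the lactate transporters, all with the larger response in implanted tumours.

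Many calls of these lists depended on single libraries. Of the calls after cGAMP, those kept in all 8 fits that leave out 1 library were Mpc1 in spontaneous tumours and Vegfa, Tek and Mpc1 in implanted tumours, so 1 of 3 and 3 of 10. Cited2 was lost in every fit in implanted tumours (adjusted p up to 0.269), and Slc2a8, Bpgm, Angptl4 and Lox, named above, in at least 1 (up to 0.183, 0.0946, 0.0745 and 0.236). In spontaneous tumours Mif and Lox were lost in at least 1 (up to 0.273 and 0.0529). Between the models 1 of 4 calls of the HIF list held throughout after PBS (Edn1) and 0 of 10 after cGAMP, and Bpgm and Pgm2 after cGAMP did not. In the tip gate 13 of 17 calls of the HIF list and 2 of 4 of the glycolysis list held, and Tigar was lost in 6 of 8 fits (up to 0.123). Within tip-gated ECs of implanted tumours Vegfa, Edn1, Angptl4 and Bsg held throughout and the other 13 calls did not, and in those of spontaneous tumours Stc2 held. None of the 4 differences of responses within tip-gated ECs held in all 8 fits, with Vegfa and Bsg called in 2 (adjusted p up to 0.171 and 0.230), Angptl4 in 4 (up to 0.144) and Pgm2 in 5 (up to 0.0790).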

How the data were processed

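CD31+ CD45- cells were sorted from the tumours and run on the 10x Chromium platform (3′ chemistry). The authors mapped reads to mm10 with Cell Ranger 3.0.0, removed cells with few genes or a high mitochondrial share and rarely found genes with Seurat 3.1.1, and deposited for each library a matrix whose values are the natural log of 1 + UMIs × 10000 / total UMIs of the cell. Dividing by the smallest value of a cell gave whole UMI counts for 100% of the values within 0.01. Cell numbers in the supplement of the study differ from those deposited, so how the deposited cells were chosen is not settled. No column of values lay outside the 8 libraries (0 unused). Reads come from the 3′ end of transcripts, so levels are not scaled by gene length and are compared within a gene, not between genes.

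Groups were taken from the labels. ECs were cells with a Pecam1 UMI, and the linear values were averaged per library, each cell scaled to 1000000 UMIs (CPM). The planned test for log-normalised files was used: limma 3.58.1 in R 4.3.3 (eBayes with trend) on log2(level + 1) with all 8 libraries in 1 fit, over genes that reached 5 CPM in 2 or more libraries, and Benjamini-Hochberg adjustment over all of them. For the tip gate the difference within each library was fitted. Simulated data with noise drawn independently for each gene were used only to check the fits, and say nothing about error rates in these data. No doublet caller was run. Each cell had the same weight in these means, so counting precision depends on the number of ECs and on the UMIs of each. With 2 mice per group, p values set each difference against a spread pooled over the few libraries of all groups and moderated across genes. All 32 genes are accounted for, genes of the 2 further lists are named as the 3 called genes of largest change per comparison, 1 gene of the HIF list is not reported here and was left out of its counts, and all members, lists and the gate were chosen with earlier results of these data known. The comparisons within tip-gated ECs alone were not among the planned ones. Leaving out libraries, scaling and the block within them were added after seeing the data.

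Replicate numbers were checked for pairing. Deviations of same-numbered libraries from their group means correlated at -0.216 to 0.125, and neither the labels nor the methods tie the numbers, so they were not treated as pairs. Alternatives were no filter, a pseudocount of 5, summed UMIs, median-of-ratios scaling, cells of at least 2000 UMIs, cells drawn to 2000 UMIs, other sets of cells, gates of 3 or 5 genes, weighting by depth, a replicate block and leaving out each library. Gene positions are from GENCODE on mm10 and promoter windows from RefSeq (GRCm38.p6). Python 3.11.15 was used for the other steps.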

Additional observations from a re-analysis of the deposited data

Results flagged for a closer look

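For 3 genes every cGAMP library moved one way in spontaneous and the other way in implanted tumours over all ECs. They were P4ha2, with a difference of the log2 responses (implanted minus spontaneous) of 1.01 (limma, adjusted p = 0.120), Slc16a1 with 0.85 (0.444) and Gpi1 with -0.13 (0.599). The difference was tested for each and did not pass the threshold. Within tip-gated ECs the difference between the responses passed the test for Ero1l (2.67, adjusted p = 0.000544), Slc2a1 (1.80, 0.0166), Slc16a3 (1.91, 0.0298) and Bnip3 (2.30, 0.0369), all with the larger response in implanted tumours. The tip-gated ECs of implanted cGAMP replicate 1 had a median of 23335.5 UMIs in a library whose other ECs had 2813, and the part of this in the 4 differences was not tested.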

How the results depend on the processing

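Of 1500 recomputed values of genes that were called, or named for the difference of the responses, 1264 kept their direction and side of the threshold, 229 kept the direction and lost the call, 5 gained one and 2 reversed, both for Egln1 in tip-gated ECs only (0.26 for the implanted response and 0.14 for implanted against spontaneous after cGAMP). Of 5078 recomputed values of genes without a call in the reported fits, 104 were called. With no filter on low values, Slc16a3 lost its call in spontaneous tumours and in the tip gate (0.0814 and 0.107). The number of called genes out of the 32 changed as follows. For the spontaneous response (7) it was 0 in tip-gated ECs and 1 to 8 with a library left out. For the implanted response (11) it was 7 without ECs with markers of other cell types and 8 to 10 with a library left out. For the difference of the responses (0) it was 1 with summed UMIs, 1 in ECs of at least 2000 UMIs, 4 in tip-gated ECs and 0 to 1 with a library left out. For the models after PBS (5) it was 9 with summed UMIs, 3 with cells drawn to 2000 UMIs, 0 with no filter, 1 in tip-gated ECs, 2 without ECs with other markers, 3 without ECs with proliferation markers and 0 to 5 with a library left out. For the models after cGAMP (8) it was 4 with cells drawn to 2000 UMIs, 4 with no filter, 2 without ECs with other markers and 0 to 11 with a library left out. For tip-gated against other ECs (26) it was 16 with cells drawn to 2000 UMIs and 23 to 26 with a library left out. The 2 tests of how the tip difference varied stayed at 0 throughout. Within tip-gated ECs the spontaneous response (0) gave 1 with median-of-ratios scaling and 0 to 3 with a library left out, the implanted response (10) gave 16 and 7 to 12, the difference (4) gave 1 to 4, the models after PBS (1) gave 0 to 2 and after cGAMP (12) gave 1 to 14. The causes were not tested.

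With the replicate number as a block, although the numbers do not pair the libraries, the counts were 8 (7 higher and 1 lower) and 11 (9 and 2) for the spontaneous and implanted responses, 0 for their difference, 5 and 10 for the models after PBS and cGAMP, and 26 (24 and 2) for the tip gate, with P4ha2 in implanted tumours (adjusted p = 0.0613) and Ldhb in the tip gate (0.0505) losing their calls and others gaining one. Over all tested genes, the main calls were 1322 and 2609 for the responses, 69 for their difference, 816 and 1434 for the models and 2828 for the tip gate. Under settings other than leaving out a library they ranged, in the same order, from 618 to 2839, 1413 to 3722, 0 to 216, 246 to 1317, 607 to 2069 and 541 to 3416. For the responses, their difference and the models, these settings include fits on tip-gated ECs alone, on ECs outside the gate and on all deposited cells. Within tip-gated ECs, 40 to 92 cells per library limit what genes of low level can show.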
